A study of Mus musculus with 12 samples.

Results

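The expression of 7 genes of the neurotrophin system was examined in mouse hypothalamus: the ligand genes Bdnf and Ntf3, the receptor genes Ntrk2, Ntrk3 and Ngfr, the sorting receptor gene Sort1 and the secreted peptide precursor gene Vgf. They were chosen by gene symbol from the normalized table of the arrays, which names 27308 genes. All 14 probes that carry these symbols were taken, out of 56605 probes. RNA of whole hypothalamus from 12 male mice was hybridized to 12 single-color Agilent arrays, with 3 mice in each of 4 groups. The wild-type control group (WT) and the Asmt-knockout control group (KO) received no treatment, and the wild-type exercise group (exercised WT) and the Asmt-knockout exercise group (KE) had gone through weeks of swimming training without added weight. All mice were C57BL/6, labelled as 6 to 7 weeks old, which the methods give as the age when training began. The knockouts were homozygous for a deletion of 20 bp in Asmt, the gene of the last enzyme of melatonin synthesis. They descended from founders made by Cas9 injection into zygotes and were backcrossed for 3 generations to wild-type littermates, and all 4 groups shared this background. The comparisons ask what the loss of Asmt and what swimming did to the hypothalamus, in a study of depression-like behavior.

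Neurotrophins are secreted growth factors that keep neurons alive and tune their synapses. Brain-derived neurotrophic factor, the product of Bdnf, binds the receptor tyrosine kinase TrkB (Ntrk2), and neurotrophin-3, the product of Ntf3, binds TrkC (Ntrk3). Both kinases also exist in truncated forms that lack the kinase domain, and truncated TrkB is the main form in astrocytes. The low-affinity receptor encoded by Ngfr binds all mature neurotrophins and, together with sortilin (Sort1), their uncleaved precursors. Sortilin also directs Bdnf into the regulated secretory pathway, and Vgf is a gene induced by neurotrophins whose peptides are released from neuroendocrine cells. In the hypothalamus Bdnf and TrkB are known for restraining food intake, and Vgf is widely made by its peptidergic neurons.

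Between 61.62% and 67.91% of the spots on an array were well above background, and 35230 probes were so on all 3 arrays of at least 1 group and were tested. The arrays lay on 2 slides. Slide 1 held all WT arrays, KO replicate 1 and KO replicate 2, and slide 2 held every exercised array of either genotype together with KO replicate 3. The leading principal component took 47.3% of the variance and placed every slide 1 array between -47.5 and -29.5 and every slide 2 array between 19.3 and 40.0. Swimming was thus compared almost wholly between slides, and only the KO arrays link them. The Asmt probe was not well above background on any of the 12 arrays (0 of 12), so it does not check the genotype labels. Of 12 hypothalamic marker genes, 11 were detected on all arrays, with Oxt between 16.59 and 17.27 and Hcrt between 16.34 and 16.89 on the log2 scale, and Sim1 was detected on 9. In bulk tissue, fewer cells of a type and less RNA per cell cannot be told apart, and this holds for every level below.

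The 14 probes of 60 bases each were all well above background on 12 of 12 arrays, so every member passed the filter on low signal. Positions are on mm9, the build of the array annotation, and each probe matches RefSeq mRNAs of its gene and so lies in exons. The annotation does not say which probes lie in untranslated regions. Bdnf had 1 probe (chr2:109566961-109567020), and so had Ntf3 (chr6:126051431-126051490, reverse strand) and Ngfr (chr11:95430211-95430270, reverse strand). Ntrk2 had 2 probes. A_55_P2006792 (chr13:58979563-58979622) matches the mRNAs of full-length and truncated TrkB, whereas A_51_P393454 (chr13:59230936-59230995) matches only those of the full-length receptor. Ntrk3 had 4 probes on the reverse strand of chromosome 7. A_66_P118329 (chr7:85337455-85337514) matches only the full-length mRNA, A_55_P2006808 (chr7:85447515-85447574) matches only the truncated one, and A_52_P55706 (chr7:85595783-85595842) and A_55_P2931253, whose bases are spread over 60102 bases from chr7:85662370-85722471, match both. Sort1 had 3 probes, of which A_55_P2503990 (chr3:108164279-108164338) lies 12716 bases downstream of A_55_P2927762 (chr3:108151563-108151622), and A_55_P2076683 (chr3:108158404-108158463) matches only 1 of the 2 Sort1 mRNAs. Vgf had 2 probes, A_55_P2085060 (chr5:137509153-137509212) and, 739 bases upstream of it, A_66_P117361 (chr5:137508414-137508473).

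The sequences below are those on which the isoform and within-gene comparisons rest. They are written 5′ to 3′ in the sense of the mRNA, as the array annotation gives them, and each leaves at least 1 reading frame open over its whole length or up to its last codon. The capitals mark the TAA stop codon with which the probe of truncated TrkC ends, where the truncated reading frame stops short of the kinase domain.
Ntrk2, all TrkB forms, A_55_P2006792: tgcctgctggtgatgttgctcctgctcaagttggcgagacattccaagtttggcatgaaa
Ntrk3, both TrkC forms, A_52_P55706: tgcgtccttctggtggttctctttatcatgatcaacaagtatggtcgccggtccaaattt
Ntrk3, full-length TrkC, A_66_P118329: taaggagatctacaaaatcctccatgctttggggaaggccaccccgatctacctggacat
Ntrk3, truncated TrkC, A_55_P2006808: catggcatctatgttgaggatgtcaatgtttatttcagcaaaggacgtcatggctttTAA
Sort1, upstream probe, A_55_P2927762: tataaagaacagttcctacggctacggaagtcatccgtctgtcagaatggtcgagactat
Vgf, upstream probe, A_66_P117361: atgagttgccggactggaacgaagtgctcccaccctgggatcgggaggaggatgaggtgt

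No member probe reached an adjusted p under 0.05 in any of the 6 comparisons, and none differed by 2-fold or more in either direction, the change that the methods screened for together with an unadjusted p up to 0.05. The adjusted criterion was met by 0% of all tested probes in every comparison except KE versus KO, where it was met by 0.0199%. With limma p-values that pair of criteria was met by 0.224% of all tested probes in KO versus WT and by 0.253% in KE versus exercised WT. In the comparisons across slides it was met by 2.19% (exercised WT versus WT), 1.21% (KE versus KO) and 2.74% (KE versus WT), and in the swimming by genotype interaction by 0.593%. With the methods' own test it was met by 24 probes for KO against WT, 730 and 57 for swimming in wild types and in knockouts, 51 for KE against exercised WT and 906 for KE against WT. Values below are normalized log2 signals and differences of them, with limma standard errors and p-values, and levels of different probes cannot be set against each other. Nothing says that the 3 samples of a group came from separate litters or cages, so p-values measure the spread between these mice.

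**Figure D1:**
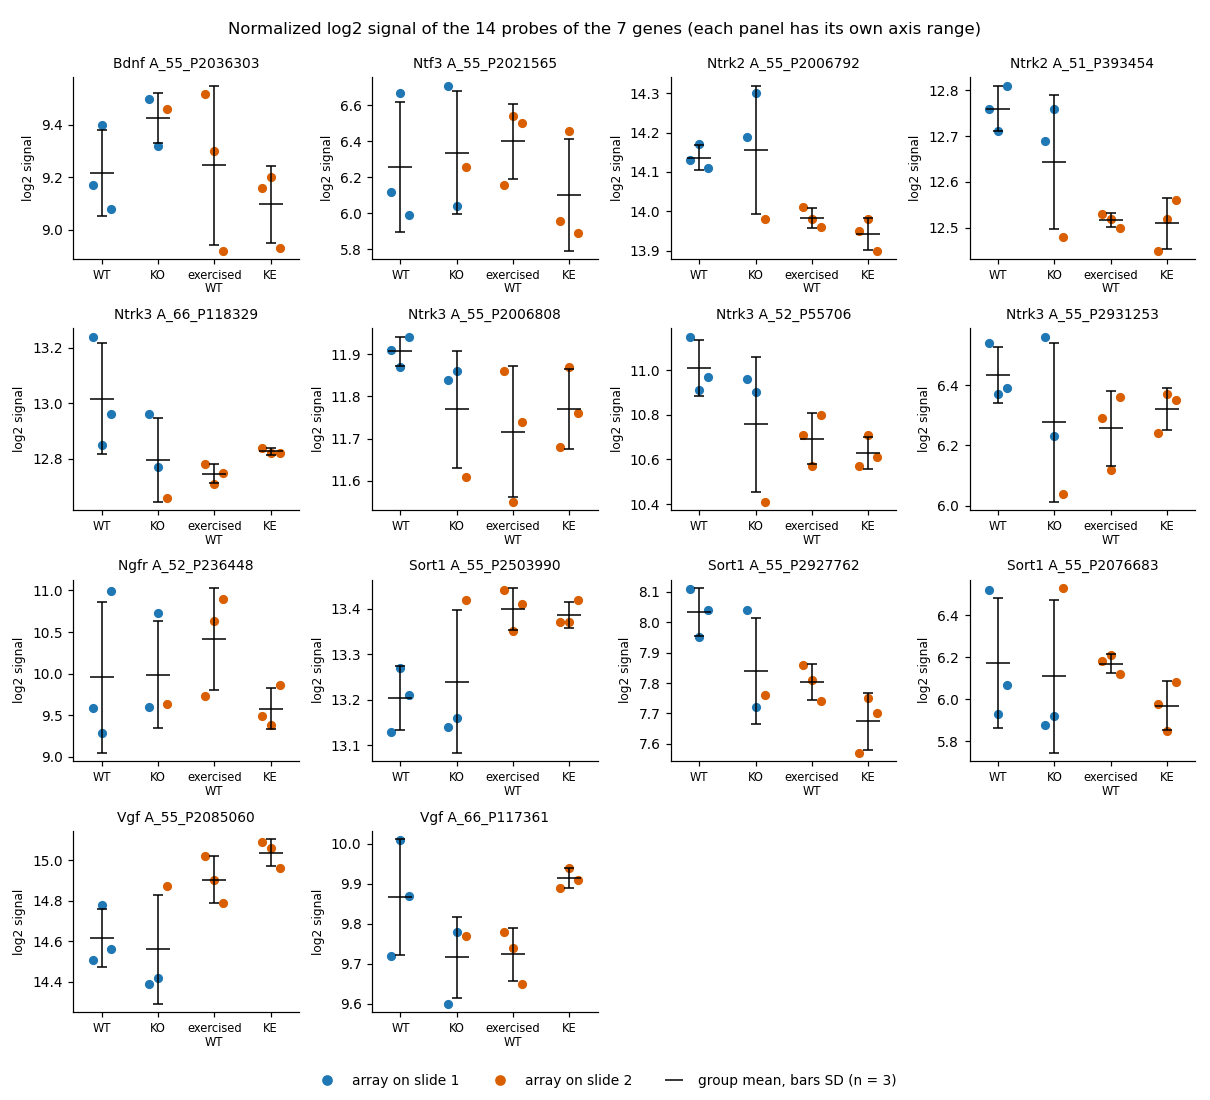
Normalized log2 signal (vertical axis) of the 14 probes in the 4 groups, 1 point per array, colored by slide, with the group mean and SD as bars (n = 3). Both Ntrk2 probes, Ntrk3 A_52_P55706, Sort1 A_55_P2503990 and Vgf A_55_P2085060 separate the slides completely, KO replicate 3 lies with the exercised arrays in these panels, and Ngfr has the widest range, 1.70.

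Bdnf was lower in swum knockouts than in sedentary knockouts, by 0.33 on the log2 scale, with a p above 0.05 both before and after adjustment. The Bdnf signal was 9.17, 9.40 and 9.08 in the WT mice, 9.50, 9.32 and 9.46 in KO, 9.52, 9.30 and 8.92 in exercised WT and 9.16, 9.20 and 8.93 in KE. All KE arrays lay below all KO arrays, while every other pair of groups overlapped, and the means ran from KO at 9.43 ± 0.09 (SD, n = 3) through exercised WT and WT to KE at 9.10 ± 0.15. KE versus KO differed by -0.33 (SE 0.147, 95% interval -0.653 to 0.001, unadjusted p = 0.0506, adjusted p = 0.238), a fold of 0.798. KO exceeded WT by 0.21 (SE 0.147, adjusted p = 0.849), and exercised WT and WT differed by 0.03 (95% interval -0.29 to 0.36). The Bdnf interaction, the swimming difference of the knockouts minus that of the wild types, was -0.36 (SE 0.207, 95% interval -0.82 to 0.10, adjusted p = 0.713). Bdnf did not follow the slides: KO replicate 3 differed from the mean of the other KO arrays by 0.04, and with slide as a block the KE versus KO difference was -0.36 (95% interval -0.85 to 0.13). Over 24 alternative settings that difference stayed between -0.38 and -0.24, with adjusted p-values from 0.190 to 0.696. Bdnf also varied with tissue markers over the 12 arrays. It correlated with the mean of the 12 hypothalamic markers at Pearson r = 0.61. With the means of the markers of basal forebrain cholinergic neurons and of cortex and hippocampus, r was -0.64 and -0.60. Within slide 2 these were 0.80, -0.72 and -0.56, and their part in the Bdnf differences was not tested.

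Ntf3 gave no difference larger than the spread between mice. Its signal was 6.12, 6.67 and 5.99 in WT, 6.71, 6.04 and 6.26 in KO, 6.16, 6.54 and 6.50 in exercised WT and 5.96, 6.46 and 5.89 in KE. The groups overlapped in every comparison, and each of the groups WT, KO and KE held 1 mouse well above the other 2. The means ran from 6.40 ± 0.21 (SD, n = 3) in exercised WT through KO and WT to 6.10 ± 0.31 in KE, and no neighbours in this order differed beyond their spread. The largest difference of Ntf3 between 2 groups was -0.29 in KE versus exercised WT (SE 0.232, 95% interval -0.81 to 0.22, adjusted p = 0.840), so at 3 mice a group a difference of this size was not detectable.

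Ntrk2, which encodes TrkB, was lower in both exercised groups than in WT on both of its probes, and this split was also a split between slides. The probe of all TrkB forms read 14.13, 14.17 and 14.11 in WT, 14.19, 14.30 and 13.98 in KO, 14.01, 13.98 and 13.96 in exercised WT and 13.95, 13.98 and 13.90 in KE. The probe of full-length TrkB read 12.76, 12.71 and 12.81 in WT, 12.69, 12.76 and 12.48 in KO, 12.53, 12.52 and 12.50 in exercised WT and 12.45, 12.52 and 12.56 in KE. On both probes every slide 1 array was above every slide 2 array, and the KO array on slide 2 was below the mean of the other KO arrays by 0.27 and 0.24. The full-length probe differed by -0.24 in exercised WT versus WT (SE 0.071, 95% interval -0.40 to -0.08, adjusted p = 0.0992) and by -0.25 in KE versus WT (95% interval -0.41 to -0.09, adjusted p = 0.0669). For the probe of all forms the same differences were -0.15 (adjusted p = 0.230) and -0.19 (adjusted p = 0.129), and KE versus KO gave -0.21 (SE 0.075, 95% interval -0.38 to -0.04, adjusted p = 0.180). With slide as a block these became 0.00 and -0.01 for the full-length probe and 0.12, 0.08 and -0.03 for the probe of all forms, none with an unadjusted p under 0.05. KE and exercised WT, which share slide 2, differed by -0.01 (95% interval -0.17 to 0.15) and -0.04 (95% interval -0.21 to 0.13). The difference between the full-length probe and the probe of all forms, taken on each array, lay between -1.54 and -1.30 on slide 1 and between -1.50 and -1.35 on slide 2. It was -1.37, -1.45 and -1.30 in WT and -1.51, -1.54 and -1.49 in KO, so all KO arrays lay below all WT arrays, including those on the same slide, and it was -1.48 to -1.46 in exercised WT and -1.50 to -1.35 in KE. Under the slide block KO versus WT was 0.11 on the probe of all forms (95% interval -0.005 to 0.228) and -0.04 on the full-length probe (95% interval -0.16 to 0.08), and the difference between the probes was noticed in these values and got no test of its own.

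Ntrk3, which encodes TrkC, had its highest mean in WT on all 4 probes. The full-length probe A_66_P118329 read 13.24, 12.85 and 12.96 in WT, 12.96, 12.77 and 12.66 in KO, 12.78, 12.71 and 12.75 in exercised WT and 12.84, 12.82 and 12.82 in KE. The truncated probe A_55_P2006808 read 11.91, 11.87 and 11.94 in WT, 11.84, 11.86 and 11.61 in KO, 11.86, 11.55 and 11.74 in exercised WT and 11.68, 11.87 and 11.76 in KE. In the order of means WT came first on both, KO and the exercised groups followed within 0.08, and those 3 overlapped except KE and exercised WT on the full-length probe. WT lay above exercised WT without overlap on both of these probes and narrowly above KE on both, while it cleared KO only on the truncated one. Full-length TrkC differed by -0.27 in exercised WT versus WT (SE 0.101, 95% interval -0.50 to -0.05, adjusted p = 0.138) and by -0.23 in KO versus WT (95% interval -0.451 to -0.002, adjusted p = 0.849), the lowest unadjusted p of any member in that comparison. Truncated TrkC differed by -0.19 (adjusted p = 0.233) and -0.14 (adjusted p = 0.849) in the same comparisons. Under the slide block these were -0.07 (95% interval -0.45 to 0.31) and -0.16 (95% interval -0.39 to 0.08) for full-length TrkC and 0.05 and -0.05 for truncated TrkC, and none had an unadjusted p under 0.05. The probe shared by both forms, A_52_P55706, separated the slides, with 10.90 to 11.15 on slide 1 and 10.41 to 10.80 on slide 2. It differed by -0.32 in exercised WT versus WT (95% interval -0.62 to -0.02, adjusted p = 0.176) and by -0.38 in KE versus WT (95% interval -0.68 to -0.08, adjusted p = 0.0996), and these turned to 0.20 and 0.14 with slide as a block. A_55_P2931253, a dim probe at 6.04 to 6.56, had an unadjusted p above 0.05 in all 6 comparisons. The full-length minus truncated difference was 1.11 ± 0.19 (SD, n = 3) in WT and 1.02 ± 0.11 in KO, and after swimming it was 1.03 ± 0.12 and 1.06 ± 0.11, with all groups overlapping. On slide 2 the full-length probe was higher in all 3 KE mice than in all 3 exercised WT mice, by 0.08 (95% interval -0.15 to 0.30, adjusted p = 0.913).

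Ngfr, the receptor that binds every neurotrophin, varied more between mice of a group than between groups. Its signal was 9.59, 9.29 and 10.99 in WT, 9.60, 10.73 and 9.64 in KO, 9.73, 10.63 and 10.90 in exercised WT and 9.49, 9.39 and 9.86 in KE. High values near 11 occurred in 1 WT, 1 KO and 2 exercised WT mice and in no KE mouse, and the groups overlapped in every comparison. The means ran from exercised WT at 10.42 ± 0.61 (SD, n = 3) through KO and WT to KE at 9.58 ± 0.25. KE versus exercised WT gave the largest difference of any member between 2 groups, -0.84 (SE 0.476, 95% interval -1.90 to 0.22, adjusted p = 0.797), a fold of 0.559. Fitted on the arrays of slide 2 alone, where both groups lie, the interval was -1.61 to -0.07 (adjusted p = 0.425).

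Markers of basal forebrain cholinergic neurons, the cells known for the strongest Ngfr expression in the forebrain, stood high in the mice with high Ngfr. Several also stood high in the third KE mouse, whose Ngfr was 9.86. Lhx8, a transcription factor of these neurons, read 7.71, 7.32 and 11.04 in WT, 7.00, 10.48 and 8.02 in KO, 8.43, 10.50 and 11.22 in exercised WT and 8.71, 9.07 and 10.24 in KE. Slc5a7, the choline transporter, read 7.88, 7.42 and 10.08 in WT, 7.74, 9.72 and 8.30 in KO, 8.62, 9.40 and 10.48 in exercised WT and 8.47, 8.26 and 9.36 in KE. The same WT, KO and exercised WT mice were high for both markers as for Ngfr, and the third KE mouse was the highest of its group for all of them. Over the 12 arrays, which share normalization and slides, the mean of the 5 cholinergic markers correlated with Ngfr at Pearson r = 0.86 and Spearman rho = 0.84, at r = 0.76 without the 2 arrays farthest from the median of Ngfr, and at r = 0.88 over the 7 arrays of slide 2. The genes of this list alone gave r = 0.92 (Slc5a7), 0.88 (Slc18a3), 0.87 (Lhx8), 0.74 (Gbx1) and 0.68 (Chat). Chat read 8.75 and 8.72 in KO replicates 2 and 3, so it did not set the KO mouse with high Ngfr apart. In KE replicate 3, without high Ngfr, Chat, Slc18a3 and Gbx1 read 9.15, 9.27 and 5.61. These were above exercised WT replicate 2, a mouse with high Ngfr, at 8.88, 9.16 and 5.35. The summed linear signal of this list ranged from 707 to 4670 in WT and from 769 to 3510 in KO, and in the exercised groups from 1600 to 5840 (wild type) and from 1540 to 3100 (knockout), and 4 of its 5 genes were detected on all arrays. The mean of the 7 striatal markers correlated with Ngfr at r = 0.73 and rho = 0.64, that of the 6 cortical and hippocampal markers at r = 0.61 and rho = 0.59, or r = 0.27 without those 2 arrays, and that of the 12 hypothalamic markers at r = -0.70 and rho = -0.56, or r = -0.36 without those 2 arrays. Over slide 2 these were 0.89, 0.92 and -0.78, so there the striatal and cortical lists followed Ngfr as closely as the cholinergic one. Their part in the Ngfr differences was not tested.

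**Figure D2:**
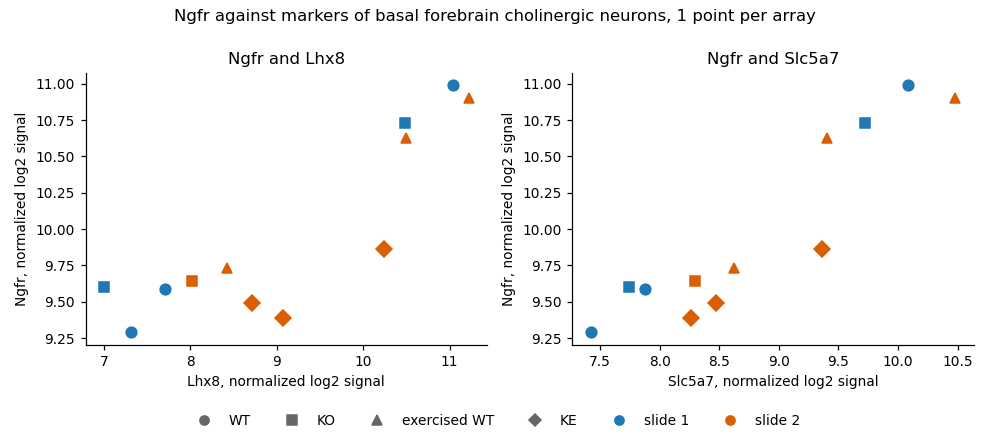
Normalized log2 signal of Ngfr (vertical axes) against Lhx8 and Slc5a7 (horizontal axes), 1 point per array, with the group as the shape and the slide as the color. Of the 12 arrays, the 4 with Ngfr above 10.6 were 1 WT, 1 KO and 2 exercised WT. Each had Slc5a7 at 9.40 or more and Lhx8 at 10.48 or more. These limits are the lowest values of those 4 arrays. KE replicate 3, with Ngfr at 9.86, lay close below them at 9.36 and 10.24.

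Sort1, the sorting receptor, moved in opposite directions on its 2 main probes. The downstream probe A_55_P2503990 read 13.13, 13.27 and 13.21 in WT, 13.14, 13.16 and 13.42 in KO, 13.44, 13.35 and 13.41 in exercised WT and 13.37, 13.37 and 13.42 in KE. The upstream probe A_55_P2927762 read 8.11, 7.95 and 8.04 in WT, 8.04, 7.72 and 7.76 in KO, 7.86, 7.81 and 7.74 in exercised WT and 7.57, 7.75 and 7.70 in KE. Both exercised groups were above WT without overlap on the downstream probe and below WT without overlap on the upstream probe. In exercised WT versus WT the downstream probe differed by 0.20 (SE 0.077, 95% interval 0.03 to 0.37, adjusted p = 0.151) and the upstream one by -0.23 (SE 0.090, 95% interval -0.43 to -0.03, adjusted p = 0.157). In KE versus WT they differed by 0.19 (adjusted p = 0.138) and -0.36 (95% interval -0.56 to -0.16, adjusted p = 0.0624), the latter being the lowest adjusted p of any member in any comparison. With slide as a block the downstream differences turned to -0.07 and -0.08, and the upstream ones were -0.11 (95% interval -0.48 to 0.25) and -0.25 (95% interval -0.61 to 0.12). The third probe, A_55_P2076683, which matches 1 mRNA form, read 6.52, 5.93 and 6.07 in WT, 5.88, 5.92 and 6.53 in KO, 6.18, 6.21 and 6.12 in exercised WT and 5.98, 5.85 and 6.08 in KE. It was high in 1 WT and 1 KO mouse, and KE lay just below exercised WT by 0.20 (adjusted p = 0.869). Because the KO mouse that was high is the one on slide 2, the block changed its KE versus WT difference from -0.20 to -0.83 (95% interval -1.38 to -0.29, adjusted p = 0.731).

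Vgf, the peptide precursor, was higher in KE than in KO on both of its probes. The downstream probe A_55_P2085060 read 14.51, 14.78 and 14.56 in WT, 14.39, 14.42 and 14.87 in KO, 15.02, 14.90 and 14.79 in exercised WT and 15.09, 15.06 and 14.96 in KE. The upstream probe A_66_P117361 read 9.72, 10.01 and 9.87 in WT, 9.60, 9.78 and 9.77 in KO, 9.78, 9.74 and 9.65 in exercised WT and 9.89, 9.94 and 9.91 in KE. KE lay above KO without overlap on both probes and above exercised WT without overlap on the upstream one, whereas exercised WT lay above WT on the downstream probe only. KE versus KO differed by 0.48 on the downstream probe (SE 0.128, 95% interval 0.19 to 0.76, adjusted p = 0.147), a fold of 1.39, and by 0.19 on the upstream probe (SE 0.081, 95% interval 0.01 to 0.37, adjusted p = 0.214), and with slide as a block both intervals held 0, at 0.17 (95% interval -0.10 to 0.43) and 0.14 (95% interval -0.11 to 0.40). KE versus exercised WT, which share slide 2, differed by 0.13 downstream (adjusted p = 0.874) and 0.19 upstream (95% interval 0.01 to 0.37, adjusted p = 0.741), the latter being the only member difference of that comparison with an unadjusted p under 0.05 in the fit over all arrays. Fitted on slide 2 alone, 3 member probes had one, this Vgf probe (95% interval 0.06 to 0.32, adjusted p = 0.357), Sort1 A_55_P2076683 and Ngfr. In that fit 11.2% of all tested probes had one, beside 6.66% in the fit over all arrays. The swimming by genotype interaction was 0.34 on the upstream probe (SE 0.114, 95% interval 0.08 to 0.59, adjusted p = 0.562) and 0.19 on the downstream one (95% interval -0.22 to 0.59, adjusted p = 0.839). Under the slide block it was 0.37 (95% interval 0.09 to 0.64, adjusted p = 0.372) and 0.34 (95% interval 0.06 to 0.63, adjusted p = 0.402). In exercised WT versus WT the 2 probes disagreed in sign, at 0.29 (adjusted p = 0.192) downstream and -0.14 (adjusted p = 0.276) upstream. With the block both were negative, at -0.18 (95% interval -0.52 to 0.16) downstream and -0.22 (95% interval -0.55 to 0.10) upstream.

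The distance between the probes of Vgf and Sort1 followed the slide on every array. The downstream minus upstream difference of Vgf was 4.63 to 4.79 on the 5 arrays of slide 1 and 5.05 to 5.24 on the 7 arrays of slide 2, a shift of 0.41. For Sort1 it was 5.02 to 5.45 and 5.54 to 5.80, a shift of 0.44. KO replicate 3 stood with the exercised arrays at 5.10 and 5.65, away from the other KO arrays at 4.79 and 4.63 for Vgf and 5.10 and 5.45 for Sort1. Within slide 2 the Vgf difference was 5.18 ± 0.05 (SD, n = 3) in exercised WT and 5.12 ± 0.08 in KE. Only the change of such a difference between arrays can be read, since the 2 probes bind with their own strength.

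**Figure D3:**
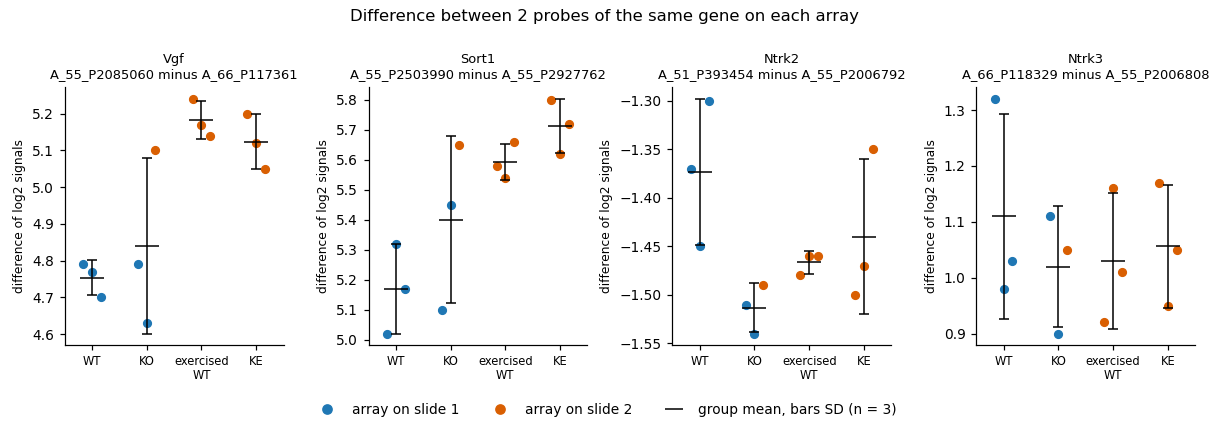
Difference of the log2 signals of 2 probes of the same gene (vertical axis) on each array, by group, with the group mean and SD as bars (n = 3) and the slide as the color. For Vgf and Sort1 all slide 2 arrays lie above all slide 1 arrays, at 5.05 or more against 4.79 or less and 5.54 or more against 5.45 or less, while for Ntrk2 and Ntrk3 the slides overlap.

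The counts of member probes are set here beside the shares over all tested probes, and no test of the members as a list was made. In KO versus WT 1 of 14 member probes had an unadjusted p under 0.05, lower in KO, where 5.48% of all tested probes had one and 3.09% did in that direction. In exercised WT versus WT there were 6, of which 2 were higher and 4 lower, beside 26% of all probes, 11.6% higher and 14.3% lower. In KE versus KO there were 3, with 2 higher and 1 lower, beside 21.1%, 8.04% and 13%. KE versus exercised WT had 1, higher, beside 6.66% and 2.19%, and KE versus WT had 6, 2 higher and 4 lower, beside 30.4%, 12.5% and 17.9%. The interaction had 1, higher, beside 7.75% and 3.62%. The groups did not overlap for 1 member probe in KO versus WT, where the same held for 8.58% of all tested probes. They did not overlap for 9 in exercised WT versus WT (37.6% of all), 3 in KE versus KO (21.5%), 3 in KE versus exercised WT (19.5%) and 8 in KE versus WT (44.1%). The slides did not overlap for 5 member probes, 2 higher and 3 lower on slide 2, and for 21.8% of all probes. The median difference of the 14 probes was -0.09 in KO versus WT against -0.01 over all tested probes. It was -0.15 against -0.04 for swimming in wild-type mice, -0.13 against -0.04 for swimming in knockouts, -0.02 against -0.01 for KE versus exercised WT and -0.17 against -0.07 for KE versus WT.

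Slide and swimming cannot be told apart except through the KO arrays. With slide as a block, 1 member probe had an unadjusted p under 0.05 in each comparison of 2 groups, and 2 had one in the interaction. The shares of all tested probes were then 5.48% for KO versus WT, 6.18% and 9.04% for swimming in wild-type and knockout mice, 10.2% for KE versus exercised WT, 4.89% for KE versus WT and 10.8% for the interaction. The block and KO replicate 3 carry the same information, because that mouse is the only one that sets knockouts of the 2 slides side by side. Without KO replicate 3, 4 member probes had an adjusted p under 0.05 for swimming in wild-type mice, 5 for swimming in knockouts and 6 for KE versus WT, as had 18%, 24.3% and 23.2% of all tested probes. The 4 were the full-length Ntrk2 probe, Ntrk3 A_52_P55706 and the downstream probes of Sort1 and Vgf, and in KE versus KO the probe of all TrkB forms joined them.

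**Figure D4:**
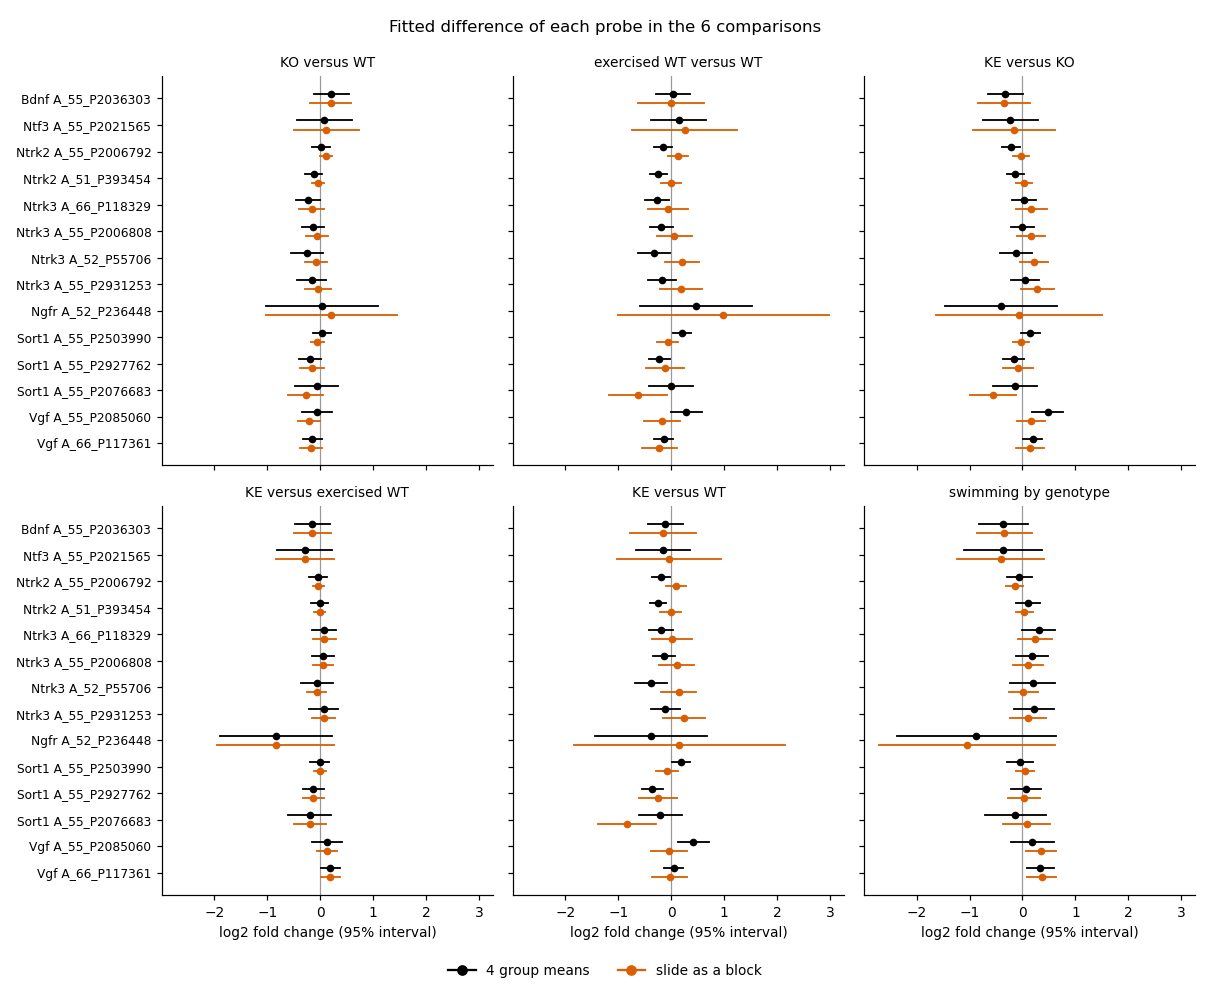
Fitted log2 fold change with its 95% interval (horizontal axis) of each of the 14 probes in the 6 comparisons, from the model of 4 group means (black) and with slide as a block (orange). In KE versus exercised WT, which share a slide, both models give the same estimates, while in exercised WT versus WT the Sort1 and Vgf downstream probes change sign.

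The genes most like each member over the 12 arrays were found by the Pearson correlation with its brightest probe among tested probes, as a description of these arrays. For Bdnf they were Rfxap (r = 0.934), Cd55 (r = 0.913) and Onecut3 (r = 0.908), and these held within slide 2 at 0.97, 0.935 and 0.926 over 7 arrays. For Ntf3 they were Pamr1 (0.875), Arhgef28 (0.839) and Amph (0.819), the weakest set of the 7. Ngfr was most like Tmem178 (0.962), Kcnmb4 (0.948) and 2610028E06Rik (0.938), within slide 2 at 0.941, 0.964 and 0.946. The sets of Ntrk2, Sort1 and Vgf were closer over all arrays than within slide 2, while over the 5 arrays of slide 1 they lay between 0.917 and 0.982. Ntrk2 went with Kbtbd11 (0.984), Hspd1 (0.972) and Tmem229b (0.967), which within slide 2 were 0.786, 0.641 and 0.855. Sort1 went with Zfp943 (0.985), Mphosph8 (0.982) and Zfand5 (0.982), and Vgf with Scn2a1 (0.980), Coro1a (0.978) and Ywhae (0.974), within slide 2 at 0.816, 0.765 and 0.727 and at 0.822, 0.890 and 0.895. Ntrk3 went with L1td1 (0.971), Sept6 (0.953) and Nmrk1 (0.952), within slide 2 at 0.889, 0.892 and 0.858.

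The wider pathway was read from 8 lists of 95 genes, of which 90 were tested by their brightest probe. They include the sortilin family, partners of the Ngfr product, processing enzymes of neurotrophin precursors, Trk adaptors and the MAP kinase, PI3 kinase and CaMK and CREB arms of Trk signalling. No listed gene reached an adjusted p under 0.05. At an unadjusted 0.05, 2 genes were higher and 2 lower in KO versus WT, 4.44% of the 90. Swimming gave 13 higher and 13 lower in wild-type mice (28.9%) and 7 and 11 in knockouts (20.0%). KE versus exercised WT gave 4 and 3 (7.78%), KE versus WT gave 13 and 16 (32.2%), and the interaction gave 2 and 4 (6.67%). These shares were near those of all tested probes. The latter were 5.48% for KO versus WT and 26% and 21.1% for swimming in wild-type and knockout mice. For KE versus exercised WT, KE versus WT and the interaction they were 6.66%, 30.4% and 7.75%. With slide as a block the 2 swimming comparisons had 2 higher and 2 lower genes each (4.44%), KE versus exercised WT had 5 and 5 (11.1%), and KE versus WT had 2 and 0 (2.22%). All tested probes then gave 6.18% and 9.04% for swimming in wild-type and knockout mice. They gave 10.2% for KE versus exercised WT and 4.89% for KE versus WT. The interaction had 3 higher and 6 lower listed genes with the block (10.0%), beside 10.8% of all tested probes.

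Of the 4 relatives of Sort1, Sorl1 differed by 0.26 and Sorcs1 by -0.28 in exercised WT versus WT (adjusted p = 0.124 and 0.128), and by -0.07 and 0.05 with slide as a block. Of the partners of the Ngfr product, Kidins220, a scaffold of neurotrophin receptors, differed by -0.23 in both swimming comparisons (adjusted p = 0.115 in wild-type and 0.177 in knockout mice), and by 0.07 and -0.02 with the block. Of the Trk adaptors, Sos2, which activates Ras, was lower in KE than in KO at -0.18 (SE 0.048, adjusted p = 0.147) and lower than in exercised WT at -0.16 (SE 0.048, adjusted p = 0.664), and with the block these were -0.14 and -0.16, each with an unadjusted p under 0.05. Of the CREB arm, Crebbp, the coactivator of CREB, was higher in KE than in KO at 0.30 (SE 0.076, adjusted p = 0.139) and than in exercised WT at 0.18 (SE 0.076, adjusted p = 0.737), and with the block the former was 0.20 and no longer had an unadjusted p under 0.05. The Crebbp signal was 12.17, 12.08 and 12.28 in KO, 12.44, 12.20 and 12.25 in exercised WT and 12.45, 12.55 and 12.43 in KE, so that KE did not overlap KO but did overlap exercised WT.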

How the data were processed

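The scanner files deposited by the authors hold the intensity of each spot from Agilent Feature Extraction 10.7.1.1, corrected for background within the array. The table deposited by the authors holds log2 signal that was quantile-normalized over all 12 arrays in GeneSpring, and the values above are those. Tables of the authors' own comparisons, with fold changes and p-values and 24 columns of repeated signal, were not used. Detection and slide were read from the scanner files. Probes entered the tests if some group had them well above background on each of its 3 arrays (35230 of 56605). The model held 4 group means over all 12 arrays (limma 3.58.1, R 4.3.3), with Benjamini-Hochberg adjustment over all tested probes. The fit was tested on simulated data. No spot was saturated, and 3 arrays a group limit the precision. The members, lists and tests were chosen with earlier results of these data known. Named genes were all members, up to 3 genes per list with the lowest p, the 3 genes most like each member, Asmt and the marker genes. The choice of which listed genes and markers to print was made after their values were seen. Alternatives were scanner signal scaled by quantile or the 75th percentile, normexp with an offset of 50, other filters, the methods' t-test, a trended prior, a fit of only the 2 groups at hand, slide or replicate number as a block, values within a slide, probes averaged per gene, and leaving out each array. Some genes of the lists enter the counts but are not reported here.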

Additional observations from a re-analysis of the deposited data

How the results depend on the processing

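Counts below are of the 14 member probes with an unadjusted p under 0.05 unless said otherwise, and the cause of each shift was not tested. Over 24 alternatives, 1868 of 1946 member estimates kept their direction, and 28 moved past the adjusted threshold. Many estimates could not turn, so this share does not measure robustness. Other filters, the t-test, the 2-group fit, the trended prior and the replicate block leave differences of group means as they were. So does leaving out an array of a group not compared. The slide block turned 23 of 84 estimates. With slide as a block, exercised WT versus WT, KE versus KO and KE versus WT each had a count of 1 in place of 6, 3 and 6, and the interaction had 2 in place of 1. The block turned the sign of 7 of 14 estimates in exercised WT versus WT and 9 of 14 in KE versus WT. Among those with an unadjusted p under 0.05 before, it turned exercised WT versus WT for Ntrk3 A_52_P55706 (0.20), Sort1 A_55_P2503990 (-0.071) and Vgf A_55_P2085060 (-0.18), and KE versus WT for these (0.14, -0.082 and -0.047) and Ntrk2 A_55_P2006792 (0.082). With probes averaged per gene, Sort1 gave -0.011 in exercised WT versus WT and -0.13 in KE versus WT, against 0.20 and 0.19 for its downstream probe. KO versus WT had a count of 2 with the 75th percentile and 0 with no detection filter, the methods' t-test, a fit of those 2 groups or values within slide 1. Of all tested probes, 5.68% had such a p with the 75th percentile and 3.45% to 4.89% in the settings with 0. KE versus exercised WT had 0 with the 75th percentile and 3 with the t-test, the fit of those 2 groups or values within slide 2. The interaction had 2 with the 75th percentile or a trended prior and 3 with normexp, beside 8.54%, 7.69% and 9.84% of all tested probes. Adjusted counts, at 0 in all comparisons, became 1 in exercised WT versus WT with the t-test or the 2-group fit. Of all tested probes, 4.64% and 8.4% then had such an adjusted p. In KE versus WT they became 1 with normexp, 2 with the t-test, 5 with the 2-group fit and 3 with a trended prior. The shares of all tested probes in these settings were 4.57%, 13.8%, 17.6% and 9.05%. Leaving out each array in turn gave 0 to 4 in KO versus WT, beside 4.56% to 9.07% of all tested probes. It gave 2 to 8 in exercised WT versus WT (18.1% to 34.2%) and 1 to 6 in KE versus KO (10.9% to 38.4%). In KE versus exercised WT the range was 0 to 2 (4.47% to 10.2%). In KE versus WT it was 3 to 6 (22.1% to 37.6%), and in the interaction 1 to 3 (5.4% to 10.8%). The counts of 4 in KO versus WT and 3 in the interaction came without KO replicate 1, which also took KE versus KO to 1, as did leaving out KE replicate 3. Without KO replicate 1 the shares of all tested probes were 9.07%, 9.62% and 11.8% in these comparisons. KO versus WT also fell to 0 without WT replicate 3 or any exercised array, and exercised WT versus WT to 2 without WT replicate 1 or exercised WT replicate 2. Adjusted counts ranged from 0 to 4, 0 to 5 and 0 to 6 in exercised WT versus WT, KE versus KO and KE versus WT, the highest each time without KO replicate 3, and stayed at 0 in the others.

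Replicate numbers did not pair the mice: deviations of same-numbered arrays correlated at -0.191 to 0.243 over 18 pairs and those of other pairs at -0.262 to 0.237. The replicate block leaves every difference of group means as it was, since each group holds every replicate number, so no sign could change. With it the interaction count was 2, beside 8.66% of all tested probes, and the other counts stayed within 1.5 times those without it.

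Slide and swimming can be separated only through KO replicate 3, and the comparison of KE with KO within slide 2 rests on that array alone, assumed to vary like the others. Whole tissue was used, and how much neighboring tissue a sample held was not measured. No probe here reads the kinase-lacking form of TrkB by itself, and the only probe of Bdnf does not separate the promoters of that gene. The Asmt probe cannot check the labels.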
